A study of Arabidopsis thaliana with 12 samples.

Results

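In leaves of Arabidopsis thaliana, 188 of 22746 probe sets were low in the watered des1-1 mutant alone. They were picked by a rule on the 4 group means of log2 expression. The mean of des1 plants given water had to lie at least 1 log2 unit (2-fold) below each of the other 3 group means, and those 3 means had to lie within 0.5 of each other. A probe set is a group of short array probes that reads 1 transcript in most cases. Exactly 1 gene was listed for 103 of the 188 probe sets (103 genes), several genes for 2, and none for 83, which are unnamed here.

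The groups were des1 Na2S, des1 water, WT Na2S and WT water, with 3 arrays each. All plants were of the Col-0 background and grew in soil with 16 h of light and 8 h of dark per day. They grew for 20 days, then received either water or sodium sulfide (Na2S, 200 mM per the labels, a dose the arrays do not check) for 10 days, and leaves were taken at 30 days. The des1-1 line is 1 T-DNA insertion line of DES1, so an effect of DES1 loss and an effect of another change in that line cannot be told apart. The water groups carried no added sodium, so effects of sulfide and of sodium cannot be told apart either. The DES1 transcript was not analysed here. Replicates are biological according to the submitters' design text.

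DES1 is a cytosolic L-cysteine desulfhydrase, an enzyme that breaks L-cysteine down and releases sulfide, and Na2S supplies sulfide from outside. Among the 103 named members, 20 were assigned to the cell wall, 19 encode cytosolic ribosomal proteins and 30 were given no role. The wall class was assigned by hand after the values were seen and has no count over all genes to set it against. Growing leaf cells loosen and rebuild a wall of cellulose, xyloglucan and pectin with enzymes such as expansins and xyloglucan endotransglucosylases. They also need new ribosomes, whose proteins are each encoded in Arabidopsis by several closely related genes. Roles below come from general knowledge of these loci, since the files give no product names.

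The 12 arrays had medians between 5.71 and 5.80 on the log2 scale, and arrays of 1 group correlated at 0.9929 to 0.9975 across probe sets. Within-group SDs of the members were near those of all probe sets. In des1 water their median SD was 0.130, against 0.125 over all probe sets. The 3 matched leaf mesophyll markers were high in every group, with means between 12.4 (the photosystem II gene PSBW in des1 water) and 14.5 (the Rubisco activase gene RCA in des1 water). In such bulk samples fewer cells of a type and less RNA per cell cannot be told apart. The number of arrays limits the precision.

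All 4 group means entered the rule, so the values of the members are a description and carry no test. The gap, which is the lowest of the other 3 means minus the des1 water mean, had a median of 1.21 (2.32-fold) and reached 3.39 (10.5-fold). It was 2 or more in 16 members, between 1.5 and 2 in 35, and under 1.5 in 137. The range of the other 3 means had a median of 0.27 and went down to 0.02. In all 188 members the 3 des1 water values lay below the other 9, which was the case in 12.7% of all probe sets. The smallest distance between the highest des1 water value and the lowest other value was 0.45, and the median distance was 0.97.

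**Figure D1:**
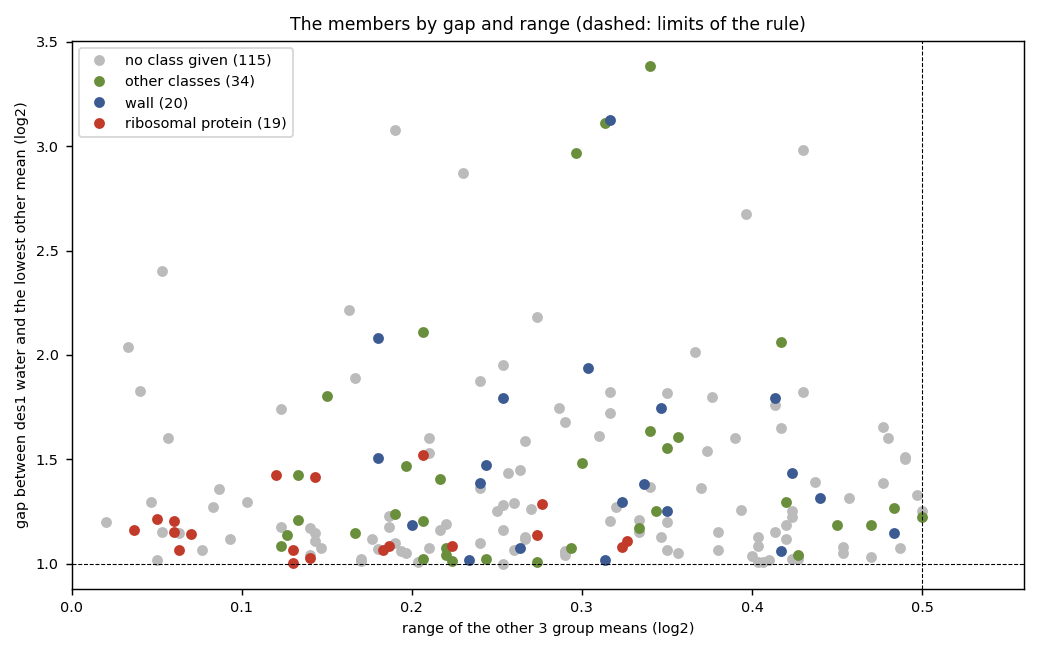
The range of the other 3 group means (x axis, log2) and the gap to des1 water (y axis, log2) of each of the 188 members, coloured by the class of its gene, with dashed lines at the limits of the rule. The 19 ribosomal protein genes sit at gaps of 1.00 to 1.52, while the 20 wall genes reach 3.13.

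Averaged over the members, 3 groups lay together and des1 water apart. The median member stood at 8.235 to 8.27 on the des1 Na2S arrays and at 6.66 to 6.84 on the des1 water arrays. It stood at 8.09 to 8.165 on the WT Na2S arrays and at 8.175 to 8.28 on the WT water arrays. The median difference of des1 water from WT water was -1.42, against 0.01 over all probe sets. The median difference of des1 Na2S from des1 water was 1.43, against 0.02 over all. That of WT Na2S from WT water was -0.10, against 0.03 over all. These comparisons share arrays, and the rule fixes the signs of those with des1 water.

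The rule limits the size of the difference between des1 Na2S and WT Na2S to 0.5 but not its sign. Of the 188 members, 155 (82.4%) had the higher mean in des1 Na2S, against 46.6% of all probe sets. The median difference was 0.155, against -0.01 over all probe sets. The count was 159 after a second quantile normalization and 157 with arrays centred on their medians, from the same arrays. Both means entered the rule, which all probe sets did not have to meet, so these shares are not like for like. They are a description, and a higher level of the members in des1 Na2S was not tested. Among the 3 groups outside des1 water, the highest mean was that of des1 Na2S in 97 members, of WT Na2S in 10 and of WT water in 81. The lowest was that of des1 Na2S in 26 members, of WT Na2S in 112 and of WT water in 50.

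The 3 largest gaps were those of a defensin-like, a wall enzyme and an aspartyl protease gene, and 5 of the next 7 belonged to probe sets with no gene listed. AT3G05730, a defensin-like protein gene, had log2 values of 10.58, 10.36 and 10.59 in des1 Na2S, 7.07, 6.67 and 6.61 in des1 water, 10.39, 10.16 and 9.96 in WT Na2S, and 10.30, 10.19 and 10.54 in WT water. The des1 water arrays were the low ones and the other groups overlapped. Its des1 water mean was 11.8-fold below WT water (log2 difference -3.56 ± 0.14, limma SE, n = 3 each), and des1 Na2S lay above des1 water by 3.73 ± 0.14. XTH16, a xyloglucan endotransglucosylase/hydrolase gene, had 7.66, 7.32 and 7.60 in des1 Na2S, 3.84, 4.19 and 4.22 in des1 water, 7.22, 7.19 and 7.22 in WT Na2S, and 7.28, 7.17 and 7.39 in WT water. Its lowest value outside des1 water was 7.17, and the difference of des1 water from WT water was -3.20 ± 0.12.

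The aspartyl protease gene AT3G54400 had 9.77, 9.96 and 9.90 in des1 Na2S, 6.50, 6.40 and 6.45 in des1 water, 9.50, 9.76 and 9.43 in WT Na2S, and 9.78, 9.60 and 9.63 in WT water. The des1 water arrays lay close together and stood apart from the rest. AT4G02850, a PhzC/PhzF family gene, had 8.30, 8.28 and 8.43 in des1 Na2S, 5.21, 4.94 and 5.06 in des1 water, 7.99, 8.13 and 8.00 in WT Na2S, and 8.25, 8.11 and 8.37 in WT water. AT4G19430, for which no role is given here, had 7.23, 6.67 and 7.17 in des1 Na2S, 3.96, 3.90 and 4.02 in des1 water, 7.26, 6.98 and 6.94 in WT Na2S, and 6.89, 6.66 and 6.94 in WT water. In each of these genes the other 3 groups overlapped at least in part. Differences of des1 water from WT water were -3.22 ± 0.11 for AT3G54400, -3.17 ± 0.11 for AT4G02850 and -2.87 ± 0.14 for AT4G19430.

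**Figure D2:**
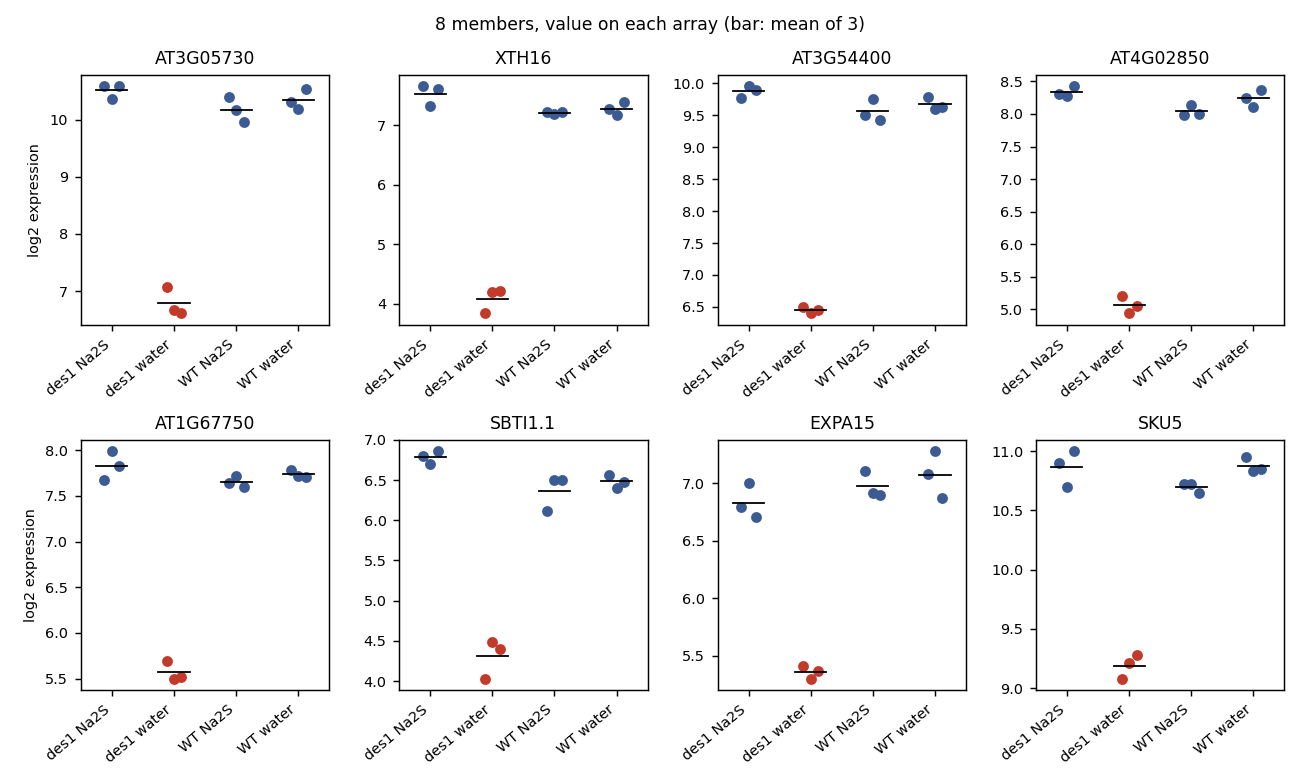
Log2 expression (y axis, own scale per panel) of 8 members on each array by group (x axis), with the mean of 3 as a bar and des1 water in red. In each panel the des1 water points lie below all points of the other groups, for AT3G05730 at 6.61 to 7.07 against 9.96 or more.

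A second tier of gaps, between 1.5 and 2.2, held further secreted proteins. AT1G67750, a pectate lyase family gene, had 7.68, 7.99 and 7.83 in des1 Na2S, 5.69, 5.50 and 5.52 in des1 water, 7.64, 7.72 and 7.60 in WT Na2S, and 7.78, 7.72 and 7.71 in WT water. The thaumatin family gene AT4G38660 had 7.47, 7.56 and 7.40 in des1 Na2S, 4.97, 5.18 and 5.41 in des1 water, 7.35, 7.74 and 7.42 in WT Na2S, and 7.25, 7.45 and 7.19 in WT water. SBTI1.1, a subtilase (serine protease) gene, had 6.80, 6.70 and 6.86 in des1 Na2S, 4.03, 4.49 and 4.40 in des1 water, 6.11, 6.50 and 6.50 in WT Na2S, and 6.57, 6.40 and 6.48 in WT water. In SBTI1.1 all des1 Na2S values also lay above all WT values. AT1G13650, for which no role is given here, had a gap of 2.18, with 7.98, 7.92 and 7.87 in des1 water and 9.99 or more on every other array.

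Pectin-linked genes made up 5 of the 20 wall members. Besides AT1G67750 they were the pectate lyase gene AT1G04680 (gap 1.79), the pectin lyase-like gene AT3G06770 (1.02), and AT1G14890 (1.79) and AT4G25260 (1.06), both of the family of invertase and pectin methylesterase inhibitors. AT1G04680 had 9.23, 9.42 and 9.47 in des1 Na2S, 7.06, 7.43 and 7.49 in des1 water, 9.23, 9.02 and 9.11 in WT Na2S, and 9.14, 9.52 and 9.00 in WT water. AT1G14890 had 7.92, 7.80 and 7.91 in des1 Na2S, 5.93, 5.84 and 5.60 in des1 water, 7.54, 7.57 and 7.64 in WT Na2S, and 7.83, 8.22 and 7.94 in WT water. In AT1G14890 the WT Na2S arrays formed an intermediate step, below both des1 Na2S and WT water without overlap.

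Expansins loosen the wall, and 2 of the 19 expansin genes matched by symbol were members (10.5%). Of all probe sets matched to 1 locus, 0.767% were members. EXPA15 had 6.79, 7.00 and 6.71 in des1 Na2S, 5.41, 5.30 and 5.37 in des1 water, 7.11, 6.92 and 6.90 in WT Na2S, and 7.08, 7.28 and 6.87 in WT water. EXPB3 had 6.79, 6.90 and 6.60 in des1 Na2S, 5.27, 5.30 and 5.42 in des1 water, 6.66, 6.96 and 6.97 in WT Na2S, and 7.15, 7.39 and 7.02 in WT water. In EXPB3 all WT water values also lay above all des1 Na2S values, whereas in EXPA15 those groups overlapped.

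Further wall members were SKU5, a wall protein of the multicopper oxidase family needed for directed root growth, GH9C2 of the endoglucanase family 9, and the extensin-like genes AT5G13140 and AT2G16630. SKU5 had 10.90, 10.70 and 11.00 in des1 Na2S, 9.08, 9.21 and 9.28 in des1 water, 10.72, 10.72 and 10.65 in WT Na2S, and 10.95, 10.83 and 10.85 in WT water. GH9C2 had 8.22, 8.71 and 8.49 in des1 Na2S, 6.72, 6.97 and 6.98 in des1 water, 8.28, 8.25 and 8.30 in WT Na2S, and 8.61, 8.34 and 8.60 in WT water. Only the des1 water arrays stood apart in these genes. AT5G13140 had a gap of 1.94, AT3G10080, a germin-like cupin gene, one of 1.75, and AT2G16630 one of 1.38. The 20 wall members spanned gaps of 1.02 to 3.13, with a median of 1.385.

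Proteases and lipases were a smaller secreted group. Besides SBTI1.1 and AT3G54400, the subtilase gene AT3G14240 had a gap of 1.55, and the serine carboxypeptidase-like genes scpl25 and SCPL45 had gaps of 1.21 and 1.01. The GDSL lipase genes AT2G04570, AT5G45950 and AT5G03610 had gaps of 1.63, 1.61 and 1.02. AT5G45950 had 10.50, 10.06 and 10.49 in des1 Na2S, 8.47, 8.35 and 8.34 in des1 water, 10.04, 10.12 and 9.96 in WT Na2S, and 10.00, 9.80 and 10.18 in WT water. The plant defensin gene LCR68 had a gap of 1.29.

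Members linked to growth and the cytoskeleton were the kinesin gene KICP-02, the beta tubulin gene TUB7, SOL1 of the TSO1-like family, the signal peptide gene RALFL34 and the auxin-conjugating enzyme gene GH3.9. KICP-02 had 6.61, 6.41 and 6.50 in des1 Na2S, 4.63, 4.91 and 4.99 in des1 water, 6.32, 6.40 and 6.21 in WT Na2S, and 6.42, 6.37 and 6.17 in WT water. TUB7 had 8.12, 8.25 and 8.14 in des1 Na2S, 7.13, 6.95 and 6.92 in des1 water, 8.31, 8.12 and 8.13 in WT Na2S, and 8.55, 8.53 and 8.43 in WT water. In TUB7 the WT water arrays lay above all others, and in KICP-02 those of des1 Na2S did only in part. GH3.9 was among the more variable members, with 4.48, 3.90 and 3.94 in des1 water and 5.64, 5.31 and 6.15 in WT water.

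Metabolic enzymes gave 7 of the named members, few of them linked to sulfur. HMT-1, a homocysteine S-methyltransferase gene, had 5.76, 5.46 and 5.43 in des1 Na2S, 4.19, 4.19 and 3.92 in des1 water, 5.48, 5.27 and 5.22 in WT Na2S, and 5.85, 5.68 and 5.94 in WT water. The glutaredoxin family gene AT3G62930 had a gap of 1.08. The rhodanese-like thylakoid protein gene AT2G42220, classed as plastid and not among the 7, had one of 1.19. AT1G66430, a sugar kinase gene, had a gap of 1.48, AT3G23940, a dihydroxyacid dehydratase gene of branched-chain amino acid synthesis, one of 1.27, and the adenylate kinase gene AT5G50370 one of 1.14. The zinc finger gene AT3G15680 (gap 1.80) and AT1G63310 (1.75), AT2G36885 (1.74) and AT4G39900 (1.60), which have no role here, completed the 20 largest gaps of named genes.

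Cytosolic ribosomal proteins were the most numerous family among the named members. They made up 19 of the 103 named genes (18.4%), against 0.986% of all loci matched to a probe set of 1 gene. The list was written by locus from general knowledge after values had been seen. Of 223 known loci for these proteins, 131 were matched to a probe set with exactly 1 gene listed, and are called measured here. Of these 131, 14.5% were members, against 0.767% of all probe sets matched to 1 locus. The other loci may still be on the arrays, since 8730 probe sets had no gene listed and 503 had several. The small (40S) subunit gave 5 members of 47 measured genes and the large (60S) subunit 14 of 84. Their gaps were narrow, at 1.00 to 1.52 with a median of 1.14, against a median of 1.25 in the other members. Their other 3 means lay closer together, with a median range of 0.14 against 0.29.

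The largest gap among them was that of AT4G30800, encoding S11. It had 7.25, 7.00 and 7.12 in des1 Na2S, 5.35, 5.32 and 5.52 in des1 water, 6.94, 6.92 and 6.89 in WT Na2S, and 6.89, 7.23 and 7.03 in WT water. AT3G28900, encoding L34, had 10.30, 10.14 and 10.20 in des1 Na2S, 8.94, 8.71 and 8.36 in des1 water, 10.15, 10.00 and 10.13 in WT Na2S, and 10.12, 10.00 and 10.29 in WT water. AT1G07070, encoding L35a, had 8.42, 8.57 and 8.42 in des1 Na2S, 6.93, 6.97 and 6.83 in des1 water, 8.40, 8.42 and 8.36 in WT Na2S, and 8.17, 8.32 and 8.49 in WT water. Only des1 water stood apart in these 3 genes. The differences of des1 water from WT water were -1.65 ± 0.11 for AT4G30800, -1.47 ± 0.13 for AT3G28900 and -1.42 ± 0.10 for AT1G07070.

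In 2 families a pair of genes qualified. For S19, AT5G15520 had 8.68, 8.43 and 8.49 in des1 Na2S, 7.06, 7.32 and 7.43 in des1 water, 8.47, 8.52 and 8.46 in WT Na2S, and 8.49, 8.31 and 8.70 in WT water. AT5G61170 had 11.13, 11.19 and 11.07 in des1 Na2S, 9.79, 9.94 and 10.02 in des1 water, 10.96, 11.11 and 11.11 in WT Na2S, and 11.13, 10.99 and 11.16 in WT water. Only the des1 water arrays were low in this pair. For L12, AT2G37190 had 11.41, 11.45 and 11.49 in des1 Na2S, 10.29, 10.21 and 10.07 in des1 water, 11.30, 11.19 and 11.34 in WT Na2S, and 11.50, 11.46 and 11.54 in WT water. AT5G60670 had 11.39, 10.88 and 11.27 in des1 Na2S, 10.28, 9.98 and 10.08 in des1 water, 11.40, 11.30 and 11.06 in WT Na2S, and 11.22, 11.58 and 11.29 in WT water. The des1 water arrays were again the lowest, and in AT2G37190 the WT Na2S arrays lay slightly below those of des1 Na2S and WT water without overlap.

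The other ribosomal members were AT2G32220 (L27), AT3G06680 (L29), AT3G44590 (the stalk protein P2), AT4G10450 (L9), AT3G16780 (L19), AT2G39390 (L35), AT4G26230 (L31), AT2G20450 (L14), AT5G22440 (L10a), AT2G44120 (L7), AT3G02560 (S7) and AT2G32060 (S12). AT3G44590 had the narrowest spread of the other 3 means, with a range of 0.04 and a gap of 1.16. AT1G52930, a Brix domain protein gene of ribosomal RNA processing, was a member with a gap of 1.02. A further member probe set, 263585_at, listed 2 L39 genes (AT4G31985 and AT2G25210) and had a gap of 1.097. All but 1 of the 188 member probe sets had plain names that mark no cross-hybridising design, but whether probes of near-identical ribosomal copies read each other was not tested.

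**Figure D3:**
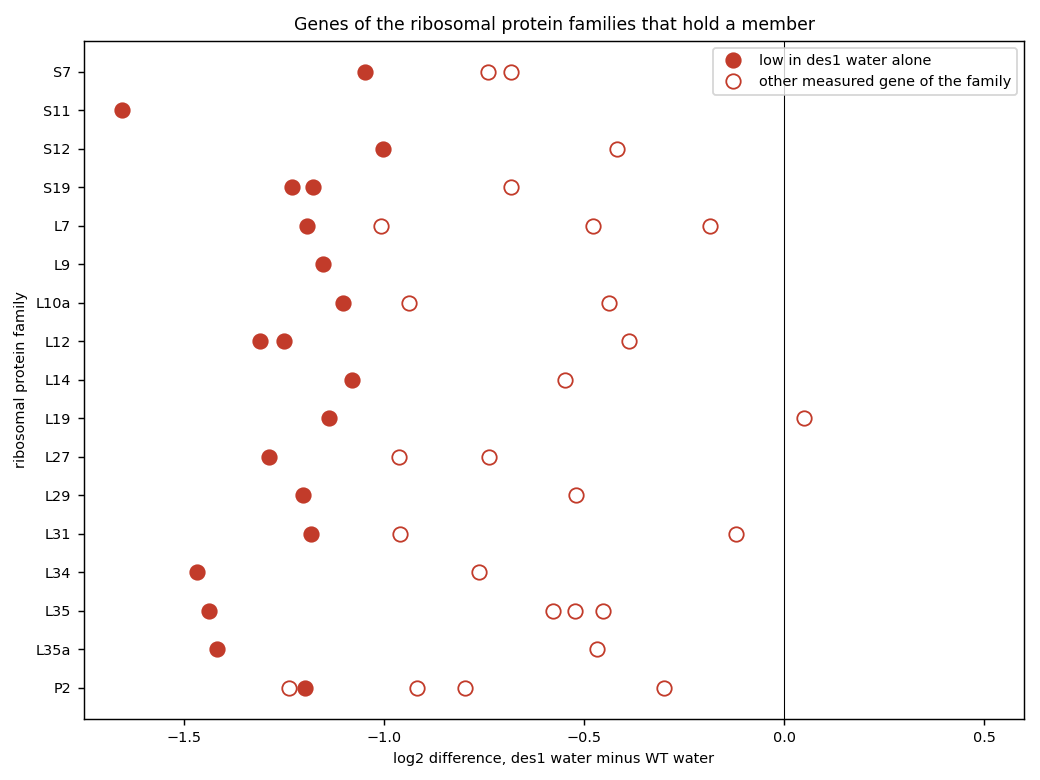
Log2 difference of des1 water from WT water (x axis) of every measured gene in the 17 ribosomal protein families that hold a member (y axis), with members filled and the other genes open. In the L12 family the members lie at -1.31 and -1.25 and the third gene at -0.39, and the non-member of L19 lies at 0.05.

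The ribosomal genes outside the members shifted the same way by less. Of these 112 genes, 93 were lower in des1 water than in WT water by limma (adjusted p at most 0.05), 1 was higher and 18 did not pass, with a median difference of -0.68. Over all 22746 probe sets, 44.7% passed in this comparison, 22.6% lower and 22.0% higher, with a median of 0.01. The gene that was higher encodes S9 (AT5G39850, 0.48 ± 0.16, limma adjusted p = 0.0174). The 131 genes together had a median of -0.74 (1.67-fold), with the middle of the list between -0.965 and -0.548, and 6 of them had a positive difference. The gap of the 112 was 0.5 to 1 in 64, under 0.5 in 47 and 1 or more in 1, which failed on its range.

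With Na2S, 96 of these 112 genes were higher in des1 Na2S than in des1 water by limma, 0 were lower (0 also at an unadjusted p under 0.05) and 16 did not pass, with a median of 0.68. Among all 22746, 37.1% passed, 17.5% in the higher and 19.6% in the lower direction. In wild type, 13 of the 112 were lower in WT Na2S than in WT water, 5 were higher and 94 did not pass, while of all probe sets 30.4% passed, 15.4% as lower and 15.0% as higher. Between des1 Na2S and WT Na2S, 1 was lower and 0 were higher by limma (8 higher at an unadjusted p under 0.05), while of all probe sets 1.4% passed, 0.813% as lower and 0.585% as higher. The 1 that was lower was AT3G28500, a P2 gene named after its values were seen, at -1.40 ± 0.11 (limma adjusted p = 6.09e-07). These comparisons share arrays with each other, and the 112 are what remains after the genes of the clearest pattern are taken out.

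**Figure D4:**
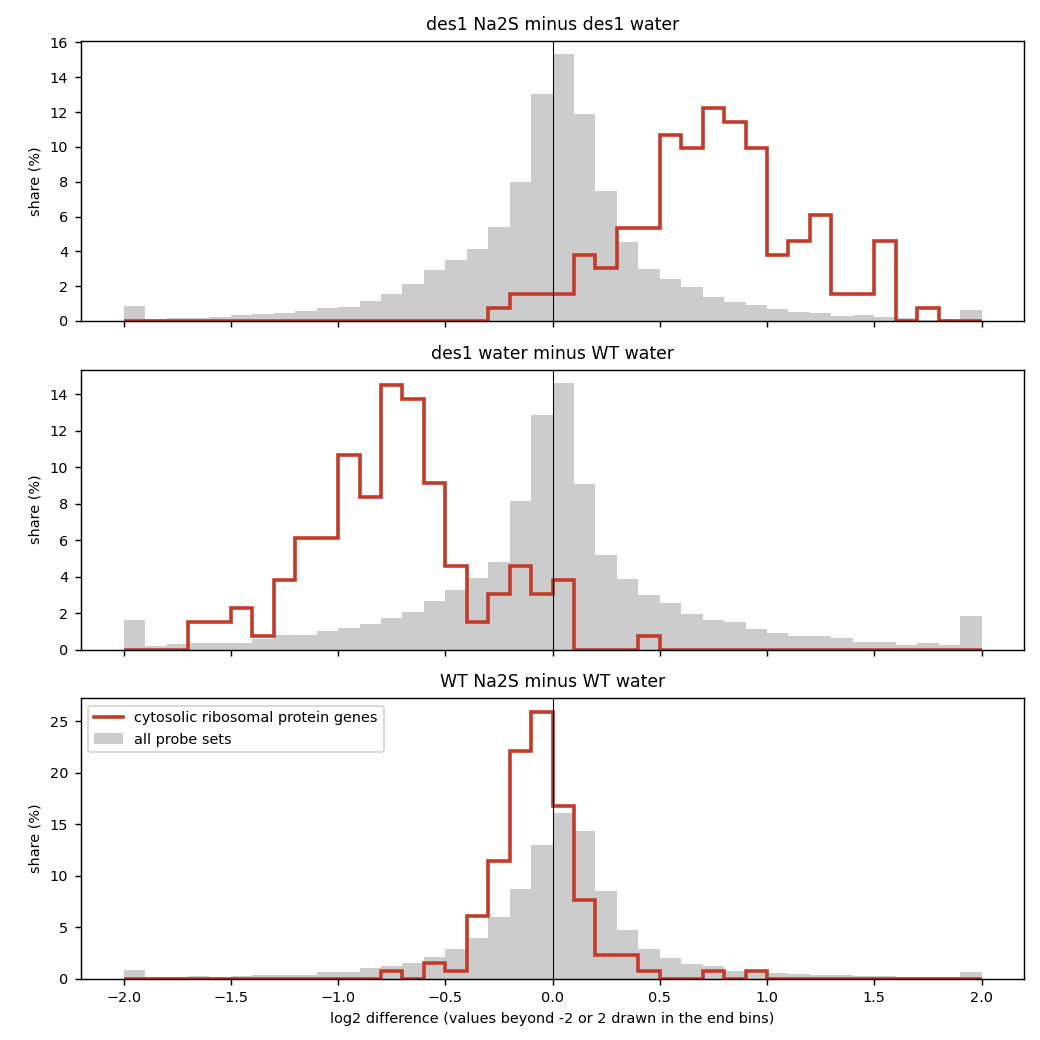
Share of genes (y axis, %) by log2 difference (x axis, bins of 0.1, values beyond -2 or 2 in the end bins) for the 131 measured cytosolic ribosomal protein genes (red line) and all 22746 probe sets (grey) in 3 comparisons. The ribosomal genes centre at a median of 0.77 for des1 Na2S minus des1 water, at -0.74 for des1 water minus WT water and at -0.07 for WT Na2S minus WT water.

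The named non-members with the largest differences were the S27a gene AT1G23410, the P0 gene AT2G40010 and the P1 gene AT5G47700. AT1G23410 had 6.29, 5.80 and 6.28 in des1 Na2S, 4.63, 4.69 and 4.55 in des1 water, 5.67, 5.90 and 5.62 in WT Na2S, and 6.29, 6.21 and 6.20 in WT water. It missed the rule by its range of 0.503. AT2G40010 had 5.54, 5.61 and 5.41 in des1 Na2S, 4.63, 4.38 and 4.57 in des1 water, 5.35, 5.41 and 5.21 in WT Na2S, and 6.06, 6.31 and 5.99 in WT water. Here both Na2S groups lay between des1 water and WT water. The 25S rRNA control probe set, a sign of the ribosomal RNA carried into the labelling, averaged 12.4 ± 0.17 in des1 Na2S, 11.4 ± 0.52 in des1 water, 12.3 ± 0.30 in WT Na2S and 12.5 ± 0.09 in WT water (SD, n = 3 each). Its part in the ribosomal protein values was not tested. The 5S rRNA control was dim and did not follow it, at 3.24 in des1 water and 3.16 in WT water. Ubiquitin control probe sets went the other way, higher in des1 water than in WT water by 0.61 to 1.07. Among 15 plastid-encoded ribosomal protein genes, none of them a member, 6 were lower in des1 water than in WT water by limma. Of the rest, 0 were higher (0 at an unadjusted p under 0.05) and 9 did not pass. The median difference of the list was -0.47. Over all 22746 probe sets 22.6% were lower and 22.0% higher, and this small list was not tested against those shares.

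Related families outside the members did not all share the pattern. Of the other 17 matched expansin genes, 6 were lower in des1 water than in WT water by limma, 0 were higher (0 at an unadjusted p under 0.05) and 11 did not pass. The lower ones are 35.3%, while of all 22746 probe sets 22.6% were lower and 22.0% higher. EXPB1 had 7.36, 7.46 and 7.58 in des1 Na2S, 4.04, 4.29 and 4.18 in des1 water, 7.16, 7.24 and 7.15 in WT Na2S, and 6.84, 7.14 and 6.89 in WT water. It followed the pattern of the members but its other means were 0.51 apart. EXPA8 had 8.63, 8.36 and 8.72 in des1 Na2S, 7.91, 7.62 and 7.83 in des1 water, 8.67, 8.72 and 8.59 in WT Na2S, and 10.90, 11.08 and 10.93 in WT water. Both Na2S groups lay between des1 water and WT water, with WT water furthest from them. EXLA2, the third named expansin, differed by -1.30 ± 0.13 (limma adjusted p = 1.21e-07).

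Of the 9 xyloglucan enzyme genes other than XTH16, 1 was lower (11.1%), 3 were higher (33.3%) and 5 did not pass. Over all probe sets 22.6% were lower and 22.0% higher, and the shares of these small lists were not tested against that. XTH19 was higher in des1 water than in WT water by 2.21 ± 0.17 (limma adjusted p = 4.88e-09), the opposite of XTH16, and EXGT-A3 by 0.62 ± 0.10 and XTH29 by 0.44 ± 0.12. Of the 22 other genes of cellulose synthesis, related synthases and endoglucanases, 9 were lower (40.9%), 2 higher (9.09%) and 11 did not pass. CSLC04 (xyloglucan backbone synthesis) differed by -2.15 ± 0.11, GH9B13 by -1.79 ± 0.13 and GH9B8 by -1.44 ± 0.15, each with a limma adjusted p of at most 1.74e-07. Of 6 pectin enzyme genes matched by symbol, none of them a member, 2 were lower, 2 higher (33.3% each way) and 2 did not pass. The match by symbol missed the pectin-linked members named above, so this list does not speak for all pectin genes.

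Among the 8 tubulin and kinesin genes outside the members, 6 were lower in des1 water than in WT water by limma, 1 was higher and 1 did not pass. TUB5 differed by -3.26 ± 0.10, TUB1 by -3.19 ± 0.15 and TUA6 by -1.53 ± 0.11. TUB5 had 8.19, 8.03 and 8.20 in des1 Na2S, 7.39, 7.48 and 7.52 in des1 water, 8.03, 8.09 and 7.92 in WT Na2S, and 10.68, 10.78 and 10.72 in WT water. It was thus high in WT water. The des1 water values were the lowest, below all values of both Na2S groups. Of 11 auxin response genes other than GH3.9, 2 were lower (IAA29 by -2.25 ± 0.14, GH3.17 by -0.59 ± 0.13), 2 higher (WES1 by 0.42 ± 0.14 among them) and 7 did not pass. These shares of 18.2% in each direction are near those over all probe sets, 22.6% lower and 22.0% higher. In 16 of the 18 named non-members the genotype difference was not the same under Na2S as under water by limma's interaction contrast, passed by 37.7% of all probe sets. These genes were named for their difference under water, which the contrast contains, so this count is in large part set by the choice.

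Lists without a member are given here for des1 water against WT water, where 22.6% of all probe sets were lower and 22.0% higher by limma. Of 7 histone genes 6 were lower and 1 higher, of 10 tetrapyrrole (chlorophyll and haem) enzyme genes 7 were lower and 0 higher (0 at an unadjusted p under 0.05), and of 7 nuclear photosystem genes 4 were lower and 1 higher. Of 9 peroxidase genes matched by name 2 were lower (22.2%), which is near the share over all probe sets, and 3 were higher. Genes without that word in their symbol or synonyms were missed, so members may still include peroxidase genes. The 4 genes of the cell cycle and replication list (AUR1, AUR2, AUR3 and PRL) were all lower by limma, with a median of -1.64.

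The summed markers of 3 cell groups were lowest in des1 water, though not every marker in them was. Of 7 leaf mesophyll markers 3 were matched, LHCB4.1 (light harvesting), RCA and PSBW, with summed log2 levels of 40.66 to 41.02 in des1 Na2S, 40.21 to 40.39 in des1 water, 40.46 to 40.90 in WT Na2S and 40.87 to 41.10 in WT water. LHCB4.1 averaged 13.80 in des1 Na2S, 13.35 in des1 water, 13.84 in WT Na2S and 13.99 in WT water. It was lower in des1 water than in WT water (-0.64 ± 0.10, limma adjusted p = 3.38e-05), as was PSBW (-0.33 ± 0.11, limma adjusted p = 0.0154), while RCA was higher (0.32 ± 0.09, limma adjusted p = 0.006). Of 7 markers of dividing cells, 2 were matched, the mitotic kinase gene AUR1 and the replication factor gene PRL. Both are also in the cell cycle and replication list above. Their summed log2 level was 12.11 to 12.53 in des1 Na2S, 10.03 to 10.37 in des1 water, 12.72 to 12.87 in WT Na2S and 14.03 to 14.27 in WT water. Here WT water lay above both Na2S groups. Of 4 stomatal lineage markers, 3 were matched, with sums of 14.90 to 15.17 in des1 Na2S, 12.91 to 13.58 in des1 water, 14.42 to 15.05 in WT Na2S and 14.21 to 14.73 in WT water. The stomatal sums were low in des1 water alone, but none of the 3 genes was a member. SPCH and MUTE were dim, with group means of 3.80 to 4.63 and of 3.46 to 4.05, and FAMA had 5.97 to 6.56. Their differences of des1 water from WT water were -0.60 ± 0.16, -0.30 ± 0.11 and -0.34 ± 0.11. The matched trichome gene TRY did not follow the members, at 8.67 to 8.86 in des1 Na2S, 7.95 to 8.35 in des1 water, 9.03 to 9.13 in WT Na2S and 6.14 to 6.56 in WT water. The part of any of these cell groups in the members' values was not tested, and no fixed marker of epidermis, vasculature, root or flower was matched in the annotation used here. Values on this log2 scale have no true 0.

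Of the 83 members with no gene listed, 264007_at had a gap of 3.08, 266165_at one of 2.98 and 258796_at one of 2.67, placing them among the largest of all members. The genes of the 103 named members lay on all 5 chromosomes, with 25, 19, 27, 11 and 21 genes on chromosomes 1 to 5. These are 24.3%, 18.4%, 26.2%, 10.7% and 20.4%, against 25.7%, 16.3%, 20.5%, 14.6% and 22.4% of all loci matched to a probe set of 1 gene. AT1G80270 (PPR596, a pentatricopeptide repeat protein) and AT1G80280 were the only pair of members that are direct neighbours in the gene table. AT1G79150 was the only member gene with a further probe set, whose gap was 0.81 against 1.07.

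Values near the limits of the rule were continuous. Just inside the gap limit stood AT3G13980 (1.00), AT2G32060 (1.00) and SCPL45 (1.01), and just outside stood 250561_at (0.997), AT1G14810 (0.997) and AT3G08680 (0.993). Just inside the range limit stood 257938_at (0.50), HMT-1 (0.50) and AT3G51720 (0.497), and just outside stood AT1G23410, 263765_at and AT2G14900 (0.503 each). A gap limit of 0.9 would give 251 members, a range limit of 0.6 would give 230, and no range limit would give 409. The same rule turned to other groups gave 311 probe sets high in des1 water alone, 261 low in WT water alone and 249 high in WT water alone. It gave 7 high in WT Na2S alone and 0 low in WT Na2S alone, and 0 high or low in des1 Na2S alone.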

How the data were processed

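Leaf RNA was hybridised to 12 Affymetrix ATH1 arrays, 3 for each of 4 groups taken from the sample titles. The deposited values are log2 expression levels from RMA (background correction, normalization and probe summary). The submitters' processing notes name RMA and affy. Their versions are not given in the sources used here. Whether the 12 arrays were processed together is not stated. If they were, RMA would have removed a shift shared by most transcripts. It compresses differences of dim transcripts.

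Values were used as deposited. The file had 22810 probe sets, of which 64 controls were left out. A platform annotation gave 1 gene for 13513 of the 22746 others, several for 503 and none for 8730. Of the 13513, 13436 matched a locus of the TAIR10.1 gene table, used for names only. Members were found by the rule on group means of the log2 values. One limma 3.58.1 model in R 4.3.3 (lmFit and eBayes, a mean per group, all 12 arrays) gave differences, SEs and p-values, with Benjamini-Hochberg adjustment across all 22746 and a threshold of 0.05. The fit was tested on simulated data. An interaction contrast (the genotype difference under Na2S minus that under water) was added after the data were seen.

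The members and lists were chosen with earlier results of these data known. Lists were matched by gene symbol. The gene table has no product text, so lists planned on product text could not be built, and the ribosomal list was written by locus from general knowledge after values had been seen. Wall and other classes of members were assigned by hand in the same way. The planned promoter motif search was not run, since no promoter sequences were used here. Named genes were the 20 largest gaps among members of 1 gene, members in a list, the 3 nearest on each side of both limits, and up to 3 non-members per list with the largest passing difference under water. Others were named after their values were seen, namely the remaining wall, secreted, metabolic, plastid and unnamed members described, SOL1, RALFL34, PPR596, AT1G80280, AT1G79150, 263585_at, AT1G52930, AT5G39850 and AT3G28500. Replicate numbers did not pair the arrays: of 18 correlations of same-numbered deviations, 1 was over 0.1 (range -0.215 to 0.162). Alternatives were a second quantile normalization, median centring, leaving out the dimmest probe sets (mean under the 40th percentile), trended robust eBayes, a fit of the compared arrays alone, the replicate block, group medians, other limits of the rule, and each array left out.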

Additional observations from a re-analysis of the deposited data

Results flagged for a closer look

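For 16 of the 18 named genes outside the members, the difference between des1 and WT was not the same under Na2S as under water, by limma's interaction contrast (adjusted p at most 0.05, passed by 37.7% of all probe sets). Each value is the log2 difference of des1 from WT under Na2S minus that under water, so a positive value means a difference that was more negative under water. In the ribosomal list it was 2.003 for AT1G23410, 1.79 for AT2G40010 and 1.70 for AT5G47700. Among expansins it was 3.09 for EXPA8, 3.07 for EXPB1 and 1.77 for EXLA2. Among tubulins it was 3.39 for TUB5, 3.62 for TUB1 and 1.69 for TUA6. CSLC04 had 2.42, GH9B13 0.90 and GH9B8 1.81. IAA29 had 2.14 and GH3.17 0.63. The sign was opposite for XTH19 (-2.85) and EXGT-A3 (-0.77), which were higher in des1 than in WT under water. In XTH29 (-0.35, adjusted p = 0.103) and WES1 (-0.29, adjusted p = 0.303) the contrast did not pass. These genes had been named for a difference under water, and the interaction holds that difference, so its size is in part set by the choice.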

How the results depend on the processing

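The 188 members became 335 with a gap limit of 0.8, 51 with 1.5, 81 with a range limit of 0.25 and 103 with probe sets of 1 gene only. These settings widen or narrow the rule by construction. Under quantile normalization again (202) and median centring (213), 180 of the 188 remained each time. With group medians there were 198, of which 163 were among the 188, and a range limit of 0.75 gave 273. With arrays left out in turn there were 180 to 203, of which 170 to 185 were among the 188. Calls by limma were 9350 to 10436 with an array left out for des1 water vs WT water (10166 in full), 7432 to 8749 for des1 Na2S vs des1 water (8443) and 5979 to 7160 for WT Na2S vs WT water (6919). For des1 Na2S vs WT Na2S (318) they were 186 to 357: 189, 198 and 207 without des1 Na2S replicates 1, 2 and 3, and 205 and 186 without WT Na2S replicates 1 and 2. The replicate block gave 10025, 8235, 6728 and 274 calls in these comparisons, and 92 lower and 96 higher ribosomal non-members, against 93 and 96; these stayed at 90 to 94 and 92 to 97 with an array left out. Of 630 gaps of named members under the alternatives, 11 were below 1, the lowest at 0.905. Of 1592 values of named non-members, 0 reversed, 13 lost and 11 gained a call; the cause was not tested. With 3 arrays a group and dim probe sets compressed, small differences may be missed.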
